A study of Mus musculus with 201 samples.

Results

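The genes described here encode the protein machinery that docks synaptic vesicles, primes them and fuses them with the presynaptic membrane. They were chosen by symbol alone, as the synaptotagmins (*Syt*), synapsins 1 to 3, synaptophysin, the SV2 proteins, *Snap25*, the syntaxin 1 genes, the vesicle-associated membrane proteins (*Vamp*), the *Rab3* GTPases, the RIM proteins (*Rims*), the UNC13 proteins, the syntaxin-binding proteins (*Stxbp*) and the complexins (*Cplx*). The choice found 54 genes in 12 subfamilies, and all 54 were present among the 42790 symbols measured in whole cells, the 42802 measured in nuclei after a new environment (NE) and the 42774 measured in home cage (HC) nuclei. The rule on symbols used no measured value, but it was set with earlier results of these data known.

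Vesicle fusion is driven by the SNARE proteins, in which a VAMP on the vesicle zips together with a syntaxin and SNAP-25 on the plasma membrane. Calcium reaches this complex through synaptotagmins, while syntaxin-binding proteins and complexins control its assembly. RIM and UNC13 proteins prepare docked vesicles at the active zone, RAB3 proteins tether them and synapsins hold a reserve of vesicles. Dentate granule cells (DGCs) are the glutamatergic principal neurons of the dentate gyrus, and their mossy fibre terminals carry large pools of vesicles.

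All samples were single cells or nuclei labelled as DGCs of the mouse, and the question was whether activity changed their RNA. Whole cells came from Prox1-GFP mice (Prox1-EGFP in the methods), in which GFP is driven by the *Prox1* promoter, 1 h after an injection of saline or of pentylenetetrazole (PTZ), a convulsant drug that blocks GABA receptors. They were dissociated with papain, sorted as GFP+ and amplified with Smart-seq2, and 38 saline and 30 PTZ cells were compared. Nuclei came from C57BL/6 mice, wild-type females 8 weeks old, by Dounce homogenization. NE nuclei were taken from 1 mouse that had spent 15 min in the NE and a further 1 h in its home cage. They were sorted as PROX1+ and either FOS+ (40 nuclei compared) or FOS− (41), FOS being the protein product of an immediate early gene. All NE nuclei came from the same isolation pool and were amplified with Smart-seq2 under 4 conditions, which combined 1 or 10 µM of template-switching oligo (TSO) with a spike-in (ERCC) dilution of 1:200 or 1:2000. The 23 HC nuclei were labelled NeuN+/PROX1+, for which the methods describe images of stained nuclei in the C1 system that amplified them.

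No label named an animal, so each group was 1 sample of many cells. Cells are not replicates of a treatment, and no test between groups was therefore made. PTZ and saline cells also came from separate animals, pools of 2 mice in the methods and 1 mouse in the series text, so that treatment and animal cannot be told apart. The titles of all saline cells end in a code that differs from the code of all PTZ cells. The labels do not say what these codes mark, and treatment cannot be told apart from it either. In single cells a gene that is not detected may be absent or may have been missed, and the values below cannot separate these. Intervals given below are exact 95% limits, Clopper-Pearson for shares of cells and Poisson for summed counts. Those of a log2 ratio are binomial limits on how the rounded counts split between both groups, scaled by the totals. All cover counting error only, since the libraries carried no molecular identifiers and several reads may stem from 1 molecule.

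Total counts ran from 401331 to 2696043 in saline cells, from 67212 to 5129240 in PTZ cells, from 107647 to 278779 in HC nuclei, from 63775 to 1060516 in FOS− nuclei and from 80096 to 1035170 in FOS+ nuclei. *Prox1*, the transcription factor that marks DGCs, had a TPM (a share of all transcripts, corrected for gene length) above 1 in 38 of 38 saline and 30 of 30 PTZ cells. In nuclei it was detected in 14 of 23 HC, 34 of 41 FOS− and 33 of 40 FOS+ nuclei. The inhibitory neuron markers *Gad2* and *Slc32a1* were detected in 0 of 38 saline and 0 of 30 PTZ cells, with highest values of 0.71 TPM for *Gad2* and 0 for *Slc32a1*. *Gad1*, the other GABA-synthesizing enzyme, was detected in 33 of 38 saline and 21 of 30 PTZ cells, and in 7 HC, 15 FOS− and 19 FOS+ nuclei. *Gad2* was above 1 TPM in 10 HC, 7 FOS− and 14 FOS+ nuclei, with a highest value of 68.3 TPM. *Slc32a1* was above 1 TPM in 2 FOS− nuclei only among the 5 groups, at up to 127.9 TPM. These nuclei were kept in all values below, and their part in the results was not tested.

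The 54 genes together had a higher median summed level in whole cells than in nuclei. Their summed level had a median of 10413.3 TPM in saline cells (3238.4 to 14870.2) and 8395.7 TPM in PTZ cells (895 to 10658.0). In nuclei the median was 2348.3 TPM in HC (613 to 14881.7), 4198.9 TPM in FOS− (580 to 8102.3) and 3674.5 TPM in FOS+ nuclei (192 to 6431.7). The ranges of all 5 groups overlapped. The 3 tables of values were made with other platforms, reads and strains, so levels of cells and nuclei are set side by side and were not tested. A saline cell had a median of 29 of the 54 genes above 1 TPM (18 to 34), a PTZ cell 27 (7 to 43), an HC nucleus 17 (12 to 21), a FOS− nucleus 24 (15 to 36) and a FOS+ nucleus 24 (11 to 38). When every cell was thinned to 50000 counts these medians became 26, 24.5, 13, 19 and 20. Over all genes, the mean number above 1 TPM was 6272.0 in saline cells, 6192.1 in PTZ cells and 3236.8 in HC nuclei. It was 6281.2 in FOS− and 6185.0 in FOS+ nuclei.

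**Figure D1:**
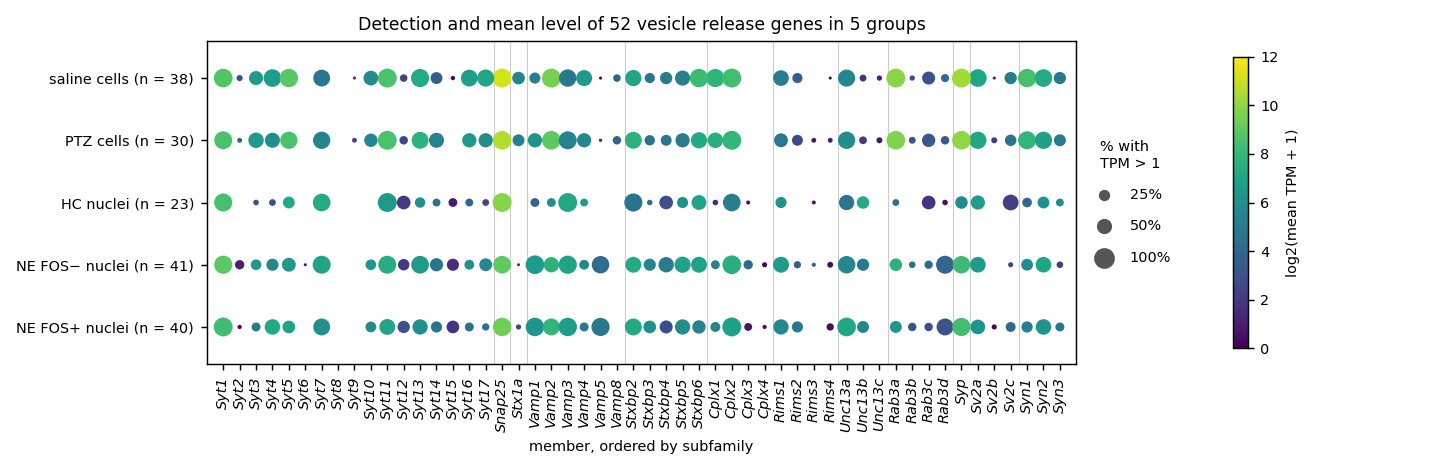
Each dot is 1 of 52 genes (horizontal axis, ordered by subfamily) in 1 group of cells or nuclei (vertical axis), its area is the percentage of cells or nuclei with a TPM above 1 and its colour is log2(mean TPM + 1). *Snap25* has the highest mean in every row, *Rab3a* and *Syp* are bright in whole cells and dimmer in nuclei, and *Vamp5* has large dots in NE nuclei alone.

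Of the calcium sensors, *Syt1*, the fast sensor of synchronous release, was detected in 37 of 38 saline cells, 27 of 30 PTZ cells, 21 of 23 HC nuclei, 38 of 41 FOS− nuclei and 40 of 40 FOS+ nuclei. Its median level was 369 TPM in saline cells (0 to 1683.7), 352 in PTZ cells (0 to 916), 389.6 in HC nuclei (0 to 1137.4), 442 in FOS− nuclei (0 to 2407.3) and 204 in FOS+ nuclei (1.80 to 1197.3). The medians of *Syt1* in nuclei thus lay on both sides of those in whole cells, and the ranges of all groups overlapped. *Syt5*, which is carried on dense-core and synaptic vesicles, had the higher mean of the pair in saline cells, 472 TPM against 427 TPM for *Syt1*, with an SD over cells of 338 and 285 TPM. Its median was 424 TPM in saline cells (0 to 1347.8), 380.3 in PTZ cells (0 to 954.7), 0 in HC nuclei (0 to 880.6), 4.79 in FOS− nuclei (0 to 992.8) and 0 in FOS+ nuclei (0 to 1668.4). *Syt11*, a synaptotagmin that does not bind calcium, was the only member of the family detected in all cells of both whole-cell groups (38 of 38 and 30 of 30) and in all 23 HC nuclei. *Syt7*, a slow high-affinity sensor linked to asynchronous release, had a higher median in nuclei than in whole cells, with 84.9 TPM in HC, 100.1 in FOS− and 37.2 in FOS+ nuclei beside 14.4 in saline and 20.1 in PTZ cells.

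*Syt4*, a synaptotagmin of dense-core vesicles known as an activity-regulated gene, had a median of 89.4 TPM in saline cells (0 to 390.4) and 38.5 in PTZ cells (0 to 326.8). It was at a median of 0 in HC nuclei (0 to 142.5) and FOS− nuclei (0 to 427), and at 31.2 TPM in FOS+ nuclei (0 to 1070.0). *Syt16*, an unusual member without a transmembrane segment, had a median of 75.6 TPM in saline cells (0 to 596) and 52.9 in PTZ cells (0 to 484), and was at a median of 0 in all 3 groups of nuclei, with highest values of 250.1 in HC, 1142.7 in FOS− and 348 in FOS+ nuclei. *Syt3*, a calcium sensor of the postsynaptic membrane, was likewise present in whole cells (median 59.0 TPM in saline, 0 to 387, and 52.1 in PTZ, 0 to 530.0) and at a median of 0 in nuclei, with highest values of 97.0 in HC, 1081.3 in FOS− and 347 in FOS+ nuclei. *Syt14* had a median of 0 in saline cells (0 to 99.6), 12.4 TPM in PTZ cells (0 to 178), 0 in HC nuclei (0 to 395), 0.80 in FOS− nuclei (0 to 242) and 0 in FOS+ nuclei (0 to 645). *Syt15* stayed low in every group, with highest values of 1.96 TPM in saline cells, 0.23 in PTZ cells, 10.8 in HC, 11.2 in FOS− and 14.7 in FOS+ nuclei. Of the remaining synaptotagmins, *Syt8* was listed at 0 in every cell and nucleus kept and *Syt6* was above 0 in 1 FOS− nucleus only, at 14.9 TPM. The synaptotagmins therefore ranged from genes near the top of the whole machinery to genes listed at 0.

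Of the plasma membrane SNAREs, *Snap25* had the highest mean of all 54 genes in every group. Its median was 2189.8 TPM in saline cells (91.2 to 4995.0), 1277.6 in PTZ cells (0 to 3174.8), 605 in HC nuclei (2.83 to 6033.7), 355 in FOS− nuclei (0 to 2074.5) and 529.5 in FOS+ nuclei (0 to 1816.1). The ranges of the 5 groups overlapped. *Stx1a*, a neuronal syntaxin, had a median of 0 in every group, with highest values of 257 TPM in saline and 213 in PTZ cells. It was detected in 17 of 38 saline and 12 of 30 PTZ cells, but in 0 of 23 HC (at most 14.8%), 1 of 41 FOS− and 3 of 40 FOS+ nuclei, with highest values in nuclei of 0, 60.6 and 78.9 TPM.

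The vesicle SNAREs differed in composition between cells and nuclei. *Vamp2*, the main vesicle SNARE of forebrain synapses, made up 81.5% of the summed mean TPM of its 6-gene subfamily in saline cells and 75.5% in PTZ cells, but 19.3% in HC, 42.5% in FOS− and 50.6% in FOS+ nuclei. In HC nuclei it was detected in 5 of 23, and a single nucleus held 81.8% of its summed TPM there. Its median was 709 TPM in saline cells (1.77 to 1520.1), 553 in PTZ cells (0 to 1317.6), 0 in HC nuclei (0 to 1129.3), 48.2 in FOS− nuclei (0 to 3679.8) and 133 in FOS+ nuclei (0 to 1080.5). *Vamp3*, also called cellubrevin and known from endosomal recycling, had the opposite order, with a median of 11.6 TPM in saline cells (0 to 151), 17.5 in PTZ cells (0 to 331), 108.0 in HC nuclei (18.9 to 455), 73.9 in FOS− nuclei (0 to 1643.5) and 60.5 in FOS+ nuclei (0 to 451). Of the stretches of 31 bases in *Vamp3* transcripts, 9.0% also occur in other genes. *Vamp1* was detected in 40 of 41 FOS− and 38 of 40 FOS+ nuclei, beside 13 of 38 saline cells, 17 of 30 PTZ cells and 5 of 23 HC nuclei. *Vamp5*, a VAMP first described in muscle, was found in 35 of the 41 FOS− nuclei (85.4%, limits 70.8% and 94.4%) and 37 of the 40 FOS+ nuclei (92.5%, limits 79.6% and 98.4%). In contrast it was detected in 1 of 38 saline cells (2.63%, 0.0666% to 13.8%), 1 of 30 PTZ cells (3.33%, 0.0844% to 17.2%) and 0 of 23 HC nuclei (at most 14.8%). After thinning to 50000 counts *Vamp5* was still counted in 16 FOS− and 26 FOS+ nuclei and in 0 saline and 1 PTZ cells. The level of *Vamp5* in NE nuclei was modest, at a median of 15.2 TPM in FOS− nuclei (0 to 77.1) and 23.7 in FOS+ nuclei (0 to 104.9).

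Among the regulators of SNARE assembly, *Stxbp6* (amisyn), which binds syntaxin and blocks entry of a VAMP, had a median of 258 TPM in saline cells (0 to 794), 89 in PTZ cells (0 to 475), 4.28 in HC nuclei (0 to 1289.7), 12 in FOS− nuclei (0 to 761) and 0.875 in FOS+ nuclei (0 to 375). *Stxbp4* (Synip), a syntaxin 4 partner studied in glucose transporter traffic, was low throughout, with a median of 0.08 TPM in saline cells (0 to 138), 0 in PTZ cells (0 to 268), 1.34 in HC nuclei (0 to 58.6), 6.12 in FOS− nuclei (0 to 309) and 0.87 in FOS+ nuclei (0 to 140.1). *Cplx2* was the leading complexin in every group. Its median was 308 TPM in saline cells (6.7 to 795), 246 in PTZ cells (1.15 to 558), 12.8 in HC nuclei (0 to 229.8), 104.0 in FOS− nuclei (0 to 777) and 52.3 in FOS+ nuclei (1.81 to 741). *Cplx1* was detected in 35 of 38 saline and 20 of 30 PTZ cells and in 2 of 23 HC, 9 of 41 FOS− and 11 of 40 FOS+ nuclei. The median of *Cplx1* was 164 TPM in saline cells (0 to 609) and 122 in PTZ cells (0 to 659), and 0 in all groups of nuclei, whose highest values were 33.9, 416 and 356 TPM. *Cplx3* and *Cplx4*, the complexins of ribbon synapses, were listed at 0 in all whole cells.

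For the priming factors, *Rims1*, a scaffold of the active zone, had a median of 11.8 TPM in saline cells (0 to 267), 7.96 in PTZ cells (0 to 134), 0 in HC nuclei (0 to 1068.0), 40.2 in FOS− nuclei (0 to 733) and 13 in FOS+ nuclei (0 to 474). *Rims2* was at a median of 0 in every group, with highest values of 176 TPM in saline cells, 29.4 in PTZ cells, 0 in HC nuclei, 119 in FOS− and 248 in FOS+ nuclei. *Unc13a* (Munc13-1), which opens syntaxin for SNARE assembly, was detected in 31 of 38 saline cells and 39 of 40 FOS+ nuclei. Its median was 26.8 TPM in saline cells (0 to 147), 21.1 in PTZ cells (0 to 463), 3.76 in HC nuclei (0 to 219), 18.5 in FOS− nuclei (0 to 375) and 56.4 in FOS+ nuclei (0.25 to 837). *Unc13b* (Munc13-2) was seen more often in nuclei, in 10 of 23 HC, 17 of 41 FOS− and 16 of 40 FOS+ nuclei beside 5 of 38 saline and 5 of 30 PTZ cells. A single HC nucleus at 3401.4 TPM held most of the HC mean of *Unc13b* of 156 TPM, and the highest values elsewhere were 42.2 in saline cells, 44.8 in PTZ cells, 395 in FOS− and 846 in FOS+ nuclei. Its median was 0 in each group except FOS+ nuclei, where it was 0.255 TPM.

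*Rab3a*, the main RAB3 of synaptic vesicles, was abundant in whole cells and missing from most nuclei. Its median was 986 TPM in saline cells (74.8 to 1973.1) and 848 in PTZ cells (0 to 1858.1), and 0 in HC nuclei (0 to 383), FOS− nuclei (0 to 3001.7) and FOS+ nuclei (0 to 808). It was detected in 38 of 38 saline cells and 29 of 30 PTZ cells but in 3 of 23 HC (13%, interval 2.77% to 33.6%), 18 of 41 FOS− (43.9%, 28.5% to 60.2%) and 16 of 40 FOS+ nuclei (24.9% to 56.7%). *Rab3d*, a RAB3 of secretory cells, showed the reverse, detected in 7 of 38 saline, 6 of 30 PTZ and 2 of 23 HC but 37 of 41 FOS− and 32 of 40 FOS+ nuclei. Its median was 0 in saline cells (0 to 185), PTZ cells (0 to 109) and HC nuclei (0 to 11.3), 5.53 TPM in FOS− nuclei (0 to 267) and 5.92 in FOS+ nuclei (0 to 25.2).

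Of the vesicle membrane proteins, *Syp* (synaptophysin) had a median of 1122.0 TPM in saline cells (1.79 to 3226.4), 888 in PTZ cells (0 to 2929.0), 0 in HC nuclei (0 to 559), 190.5 in FOS− nuclei (0 to 1368.4) and 281 in FOS+ nuclei (0 to 1380.9). Of the exon bases of *Syp*, 16.8% lie under an exon of the antisense gene *Gm14703*, and without strand the reads of the pair cannot be told apart. *Sv2a*, a glycoprotein of all synaptic vesicles, led its subfamily in every group, with a median of 110.1 TPM in saline cells (0 to 573), 135.0 in PTZ cells (0 to 682), 1.82 in HC nuclei (0 to 894), 40.5 in FOS− nuclei (0 to 664) and 12.9 in FOS+ nuclei (0 to 822). *Sv2c* had a median of 0 in saline cells (0 to 313), 0.105 TPM in PTZ cells (0 to 148), 2.38 in HC nuclei (0 to 16.8), 0 in FOS− nuclei (0 to 184) and 0 in FOS+ nuclei (0 to 151). Of the synapsins, *Syn1* had a median of 317 TPM in saline cells (0 to 819), 264 in PTZ cells (0 to 636), and 0 in HC (0 to 238), FOS− (0 to 453) and FOS+ nuclei (0 to 430.5). *Syn2* had a median of 153.0 TPM in saline cells (0 to 442), 86.6 in PTZ cells (0 to 368), 0 in HC nuclei (0 to 431), 38.6 in FOS− nuclei (0 to 982) and 20.5 in FOS+ nuclei (0 to 474). *Syn1* therefore led the synapsins in whole cells (64.2% of their summed mean TPM in saline cells) and *Syn2* in nuclei (48.5% in HC, 69.1% in FOS− and 54.9% in FOS+ nuclei). *Syn3*, the remaining synapsin, was at a median of 0.345 TPM in saline cells (0 to 203), 0.315 in PTZ cells (0 to 176) and 0 in HC (0 to 689.7), FOS− (0 to 51.9) and FOS+ nuclei (0 to 527).

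Across the 54 genes the order of the mean levels was nearly the same in saline and PTZ cells (Spearman's rho 0.979) and close in FOS− and FOS+ nuclei (0.884). It was less alike between saline cells and FOS− nuclei (0.822), FOS+ nuclei (0.794) or HC nuclei (0.656). These values describe gene order over 54 genes, which are not independent, and the sets of cells differ in depth, strain, read layout and platform. A smaller share of HC nuclei than of saline cells had detected 38 of the genes and a larger share had detected 11. After thinning these numbers became 40 and 6, the latter being *Rims3*, *Stxbp2*, *Syt7*, *Syt12*, *Unc13b* and *Vamp3*. For FOS− nuclei 32 genes had a smaller share and 21 a larger one (35 and 15 after thinning), and for FOS+ nuclei 30 and 20 (34 and 14). The same numbers were not counted over all genes, of which HC nuclei had fewer above 1 TPM than saline cells.

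**Figure D2:**
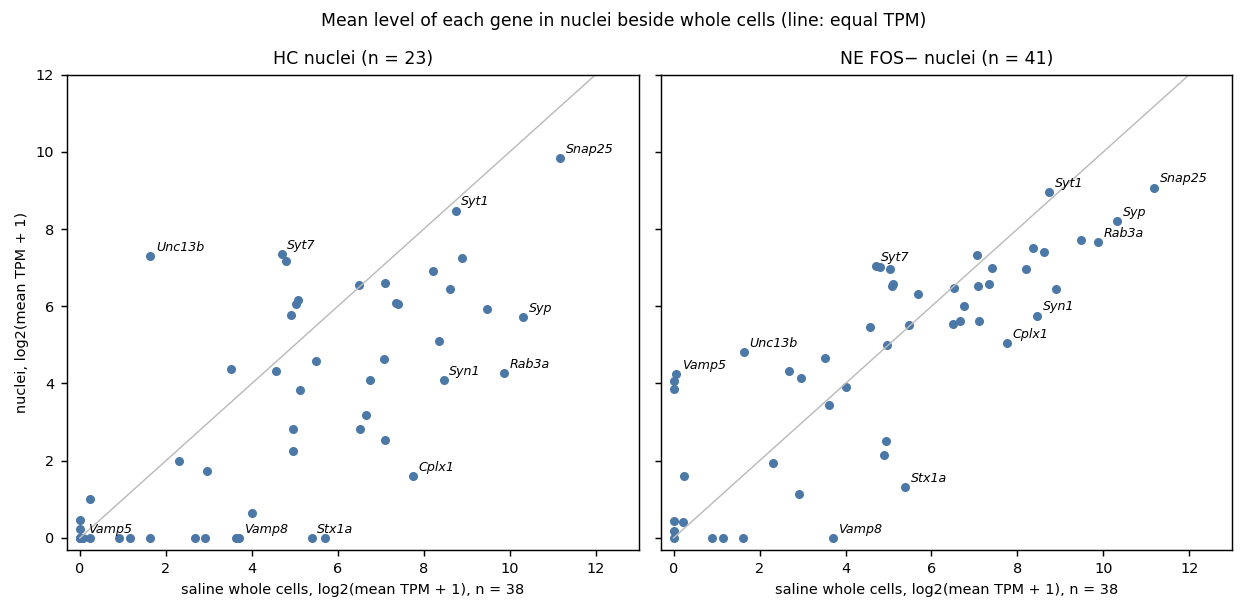
Each point is 1 of 52 genes, with log2(mean TPM + 1) in saline whole cells on the horizontal axis and in HC nuclei (left) or NE FOS− nuclei (right) on the vertical axis, and the line marks equal TPM. *Rab3a*, *Syn1*, *Cplx1* and *Stx1a* lie below the line in both panels, while *Unc13b* and *Syt7* lie above it.

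The comparison of FOS+ with FOS− nuclei asked which of the genes differed with activity in the NE. Counts were summed over the nuclei of a group and scaled to a common total of counts (CPM), and a gene was called when the ratio passed 2-fold in either direction. A gene entered when at least 5 nuclei had a count of it, and 46 of the 54 genes did. *Stx1a*, *Sv2b*, *Syt6*, *Syt8*, *Syt9*, *Rims3*, *Unc13c* and *Vamp8* did not. Of the 46, 7 were over 2-fold higher in FOS+ nuclei (15.2%), beside 18.2% of all 16393 genes, and 9 were over 2-fold lower (19.6%), beside 28.3% of all genes. Their median log2 ratio was −0.19 and that of all genes −0.20. The direction of many genes depended on the scaling, since the median of all genes moved from −0.20 to 0.04 with TMM factors, and the calls that were higher went from 39.1% to 48.8% of all calls. With TMM factors 8 of the 46 genes were over 2-fold higher and 4 lower (*Cplx3*, *Stxbp4*, *Syt3* and *Syt16*). Of all genes 22.5% were then higher and 23.6% lower.

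A stricter call asked that the ratio point the same way in all 4 amplification conditions and stay past 2-fold without any single nucleus. By this call 1 gene was higher (*Rims2*) and 2 were lower (*Stxbp4* and *Syt3*) in FOS+ nuclei, beside 2.97% and 4.19% of all genes. These shares are 2.17% and 4.35% of the 46 genes. *Rims2* (chr15:39198261-39684372, plus strand, in the GENCODE annotation of GRCm38), which encodes the RIM2 scaffold, stood at 85.6 CPM in FOS+ nuclei (interval 80.9 to 90.5) and 16.5 CPM in FOS− nuclei (14.4 to 18.7), a log2 ratio of 2.38 that ran from 1.88 to 2.93 when nuclei were left out singly. It was detected in 14 of 40 FOS+ nuclei (20.6% to 51.7%) and 6 of 41 FOS− nuclei (14.6%, 5.57% to 29.2%), so that most nuclei of both groups had none and the groups overlapped. Within the conditions its log2 ratio was 0.03, 2.83, 1.88 and 2.79, the lowest being that of 10 µM TSO with the 1:200 dilution. In that condition the median log2 ratio of all genes was 0.034, so *Rims2* lay no higher than the median gene there.

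*Stxbp4* (chr11:90476492-90638084, minus strand) stood at 9.38 CPM in FOS+ and 54 CPM in FOS− nuclei, a log2 ratio of −2.53 (−3.44 to −1.96 leaving out single nuclei). Its ratio was −0.19, −4.81, −1.62 and −2.73 in the 4 conditions, and 19 of 40 FOS+ beside 27 of 41 FOS− nuclei had it above 1 TPM. *Syt3* (chr7:44384102-44400187, plus strand) stood at 15.5 CPM in FOS+ and 127 CPM in FOS− nuclei, a log2 ratio of −3.03 (−3.97 to −2.38), and its ratio in the conditions was −0.48, −1.12, −1.88 and −7.65. It was detected in 9 of 40 FOS+ and 13 of 41 FOS− nuclei, whose intervals for the share overlap (10.8% to 38.4% and 18.1% to 48.1%). For *Syt3* the groups therefore differed more in the summed counts than in how many nuclei had the gene. With the deposited TPM averaged over nuclei in place of summed counts, the log2 ratio was 1.5 for *Rims2*, −2.27 for *Stxbp4* and −1.74 for *Syt3*.

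**Figure D3:**
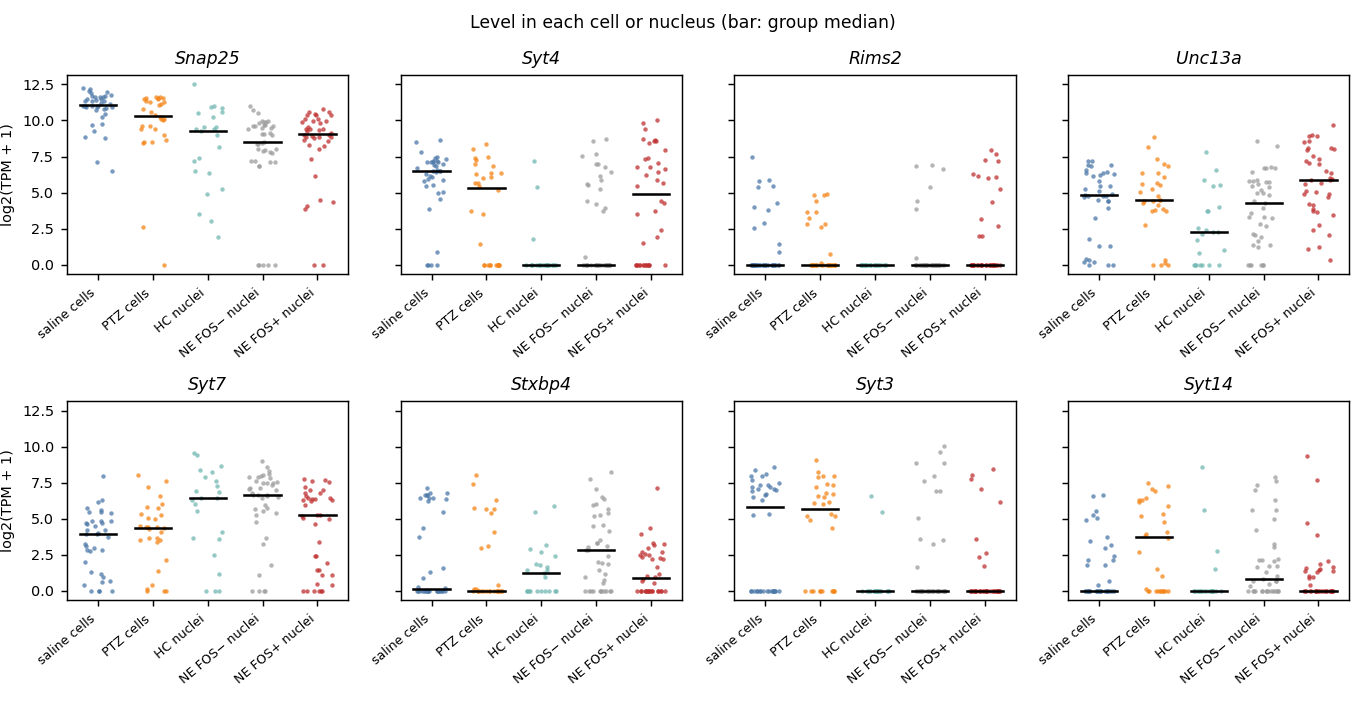
Each point is 1 cell or nucleus, the vertical axis is log2(TPM + 1), the 5 groups stand side by side and the bar is the group median. *Snap25* is high in nearly all cells and nuclei, the median of *Syt4* is 0 in FOS− and above 0 in FOS+ nuclei, and for all 8 genes the points of the groups overlap.

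Among the other genes higher in FOS+ nuclei were *Syn3*, *Sv2c*, *Syt4*, *Unc13a* and *Unc13b*, and all of these failed the stricter call. *Syt4* was found above 1 TPM in 27 of the 40 FOS+ nuclei (67.5%, limits 50.9% and 81.4%) and 17 of the 41 FOS− nuclei (41.5%, limits 26.3% and 57.9%). It stood at 441 CPM in FOS+ (431 to 452) and 123.5 CPM in FOS− nuclei (118 to 129), a log2 ratio of 1.84 (1.59 to 2.29 leaving out single nuclei). Its ratio was 1.55, 1.80 and 2.36 in 3 conditions and −0.22 with 10 µM TSO and the 1:200 dilution. Of the exon bases of *Syt4*, 14.5% lie under the antisense gene *Gm26658*, whose reads cannot be told apart from it.

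*Unc13a* was present in nearly every nucleus, 39 of 40 FOS+ and 35 of 41 FOS−. It stood at 462 CPM in FOS+ and 202 CPM in FOS− nuclei, a log2 ratio of 1.19 (0.95 to 1.34), with 3.37 and 1.99 in the conditions with 1 µM TSO and −0.07 and −0.03 in those with 10 µM. *Unc13b* had a log2 ratio of 1.01 and pointed upwards in all 4 conditions, but a single nucleus held 45.4% of its FOS+ counts and its ratio ran from 0.20 to 2.28 leaving out single nuclei. Both UNC13 genes that were measured thus lay above 2-fold, and neither kept that under the stricter call.

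*Syn3* stood at 72.3 CPM in FOS+ and 6.71 CPM in FOS− nuclei (log2 ratio 3.43), but it was detected in 9 of 40 and 5 of 41 nuclei, a single nucleus held 56.1% of the FOS+ counts, and 14.1% of its exon bases lie under *Timp3* on the other strand. *Sv2c* had a log2 ratio of 2.06, detected in 11 of 40 FOS+ and 3 of 41 FOS− nuclei, and a single nucleus held 93.0% of its FOS− counts. Leaving out single nuclei, the ratio ran from 2.32 to 4.37 for *Syn3* and from 1.18 to 5.82 for *Sv2c*. Each failed the stricter call because 1 condition pointed downwards. That ratio was −1.07 for *Syn3* (10 µM TSO, 1:200 dilution) and −0.26 for *Sv2c* (1 µM TSO, 1:2000 dilution).

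On the lower side, *Syt7* depended little on single nuclei and was detected in 32 of 40 FOS+ and 37 of 41 FOS− nuclei. It stood at 272 CPM in FOS+ (264 to 281) and 561 CPM in FOS− nuclei (548 to 573), a log2 ratio of −1.04 that ran from −1.19 to −0.95 leaving out single nuclei. All 4 conditions pointed downwards, at −1.12, −1.03, −0.52 and −1.03. It failed the stricter call because leaving out a nucleus brought it within 2-fold, and with TMM factors it was not among the genes past 2-fold. *Syn1* had a log2 ratio of −1.03 (−1.50 to −0.67) with 0.38, −0.94, 2.50 and −2.93 in the conditions. *Syt16* had −1.51 (−2.17 to −0.99) and stood at 33.3 CPM in FOS+ and 95.1 CPM in FOS− nuclei, with both signs among the conditions. For *Syt10*, *Syt17*, *Syt2* and *Cplx3* the log2 ratios were −1.06, −1.19, −1.17 and −4.46, and for *Syt10* and *Cplx3* a single FOS− nucleus held 73.9% and 86.5% of the counts. For *Syt17* and *Syt2* a single FOS+ nucleus held 58.9% and 59.7% of the FOS+ counts. Leaving out single nuclei of either group, the ratios ran from −2.45 to −0.66 and from −2.41 to −0.88. *Syt2* had 8.61 counts in FOS+ and 18.7 counts in FOS− nuclei, and the interval of its ratio, −2.46 to 0.09, included 0.

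Among the members within 2-fold, *Snap25* had a log2 ratio of 0.30 (1040.3 CPM in FOS+ and 842 CPM in FOS− nuclei), *Syp* 0.20, *Vamp2* 0.23, *Syt1* −0.50, *Cplx2* −0.45, *Sv2a* −0.24, *Rims1* −0.41, *Rab3a* −0.69 and *Syn2* −0.98. By subfamily, 1 of 14 measured synaptotagmins was higher and 6 were lower, beside 18.2% and 28.3% of all genes. With TMM factors only *Syt3* and *Syt16* among them were lower, beside 23.6% of all genes. Past 2-fold were 0 of 5 *Vamp* genes and 0 of 4 *Rab3* genes. Of the 6 *Stxbp* genes 1 was lower, and of the 4 complexins 1.

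**Figure D4:**
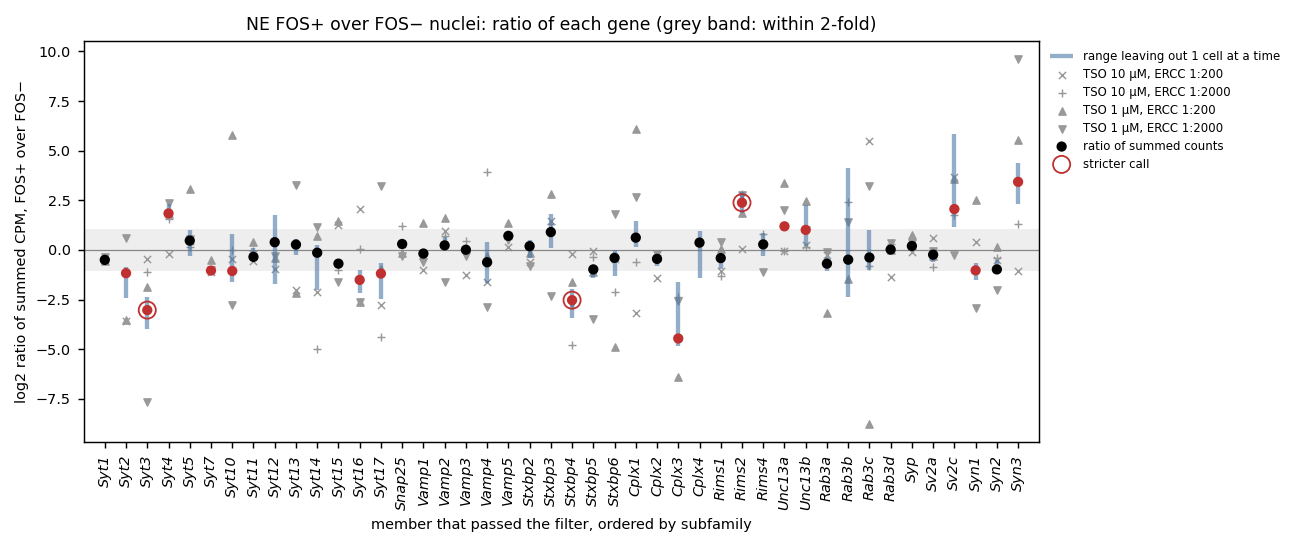
For each of 44 genes measured in NE nuclei (horizontal axis), the vertical axis gives the log2 ratio of summed CPM in FOS+ over FOS− nuclei (red dots past 2-fold, black within), with bars for the range when nuclei are left out singly and grey symbols for the 4 amplification conditions. *Rims2*, *Stxbp4* and *Syt3* are ringed as the stricter calls, and the grey symbols of most other called genes lie on both sides of 0.

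Immediate early genes gave the scale of the sort. *Arc* was detected in 31 of 40 FOS+ and 1 of 41 FOS− nuclei and *Homer1* in 37 and 22, while *Fos* itself was detected in 12 and 3. The total count had a median of 269061 in FOS+ and 214421 in FOS− nuclei. The 7 granule cell markers summed to 1475.3 to 16411.4 TPM in FOS+ nuclei (median 4471.3). In FOS− nuclei they ran from 1807.3 to 25501.2 TPM (median 6463.4). Of these, *C1ql2* was detected in 18 FOS+ and 25 FOS− nuclei (log2 ratio −1.45) and *Dsp* in 11 and 9 (1.02). The other ratios were −0.08 for *Prox1*, −0.63 for *Rbfox3*, −0.41 for *Calb1*, −0.12 for *Slc17a7* and 0.05 for *Neurod1*. The summed level of 7 interneuron markers ran from 0 to 1454.7 TPM in FOS+ nuclei (median 36.4) and from 0 to 5823.7 TPM in FOS− nuclei (median 16.2). Of these, *Gad1* was detected in 19 FOS+ and 15 FOS− nuclei, *Gad2* in 14 and 7, *Lhx6* in 12 and 6 and *Slc32a1* in 0 and 2. The 4 markers of CA pyramidal neurons ran from 0 to 158.9 TPM in FOS+ and from 0 to 93.1 TPM in FOS− nuclei, with a median of 0 in both. Of these, *Fibcd1* was detected in 7 FOS+ and 3 FOS− nuclei (log2 ratio 2.90, a stricter call) and *Wfs1* in 10 and 13 (1.19). The 4 immature neuron markers ran from 0 to 422.4 TPM in FOS+ nuclei (median 4.37). They ran from 0 to 696.5 TPM in FOS− nuclei (median 3.09). Among them *Dcx* was detected in 5 FOS+ and 9 FOS− nuclei (log2 ratio −3.36) and *Igfbpl1* in 7 and 4 (−2.26). A single FOS− nucleus held 69.35% of the FOS− counts of *Dcx*. *Sox11* was detected in 18 and 17 (0.65), and *Calb2* in 1 and 1, with no ratio. The 5 microglial markers ran from 0 to 4304.5 TPM in FOS+ (median 4.25) and from 0 to 51.8 TPM in FOS− nuclei (median 4.88), with *C1qa* at 0 in both. The 6 astrocyte markers ran from 0 to 873 TPM (median 15.3) and from 0 to 413 TPM (median 30.4), with *Aldh1l1* at 0 in both. The 5 oligodendrocyte markers ran from 0 to 945 TPM in FOS+ (median 36) and from 0 to 350.5 TPM in FOS− nuclei (median 24.8). The part of such nuclei and of depth in the ratios above was not tested.

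Promoters were searched for the letters bound by activity-dependent factors, CREB at the CRE (TGACGTCA) and FOS/JUN dimers at the AP-1 site (TGANTCA), on both strands of a window of fixed length around each RefSeq start in GRCm38.p6, of which 250 bases lie before the start. A window was given for 39 of the 54 genes. The CRE was found for 2 of them, *Stxbp3* and *Syn1* (5.13%), beside 2.03% of all 27025 genes with a window, and the AP-1 letters for 3 of them, *Syt2*, *Syt6* and *Syt8* (7.69%), beside 8.97% of all genes. Neither motif was found in the windows of *Stxbp4* and *Syt3*, and the table had no window for *Rims2*. *Syt14*, a stricter call of PTZ over saline cells below, held neither motif in its window and is not shown. Below are the bases that lie upstream of both the RefSeq start and the annotated gene, 5′ to 3′ on the strand of the gene. The bases next to the RefSeq start are therefore left out for all but *Stxbp4*. The CRE is in capitals, and the genes are the 2 that hold it and the 2 stricter calls of FOS+ over FOS− nuclei that have a window. *Stxbp3* is shown at chr3:108840527-108840752 (minus strand), *Syn1* at chrX:20921005-20921168 (minus strand), *Stxbp4* at chr11:90638109-90638358 (minus strand) and *Syt3* at chr7:44383876-44384101 (plus strand).
Stxbp3: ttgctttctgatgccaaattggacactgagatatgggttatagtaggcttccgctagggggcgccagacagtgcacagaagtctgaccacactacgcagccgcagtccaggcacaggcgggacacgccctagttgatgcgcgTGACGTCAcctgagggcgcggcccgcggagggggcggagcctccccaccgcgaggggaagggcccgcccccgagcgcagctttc
Syn1: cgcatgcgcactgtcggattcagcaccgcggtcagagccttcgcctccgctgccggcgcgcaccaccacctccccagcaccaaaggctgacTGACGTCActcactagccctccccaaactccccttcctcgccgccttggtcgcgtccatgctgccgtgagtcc
Stxbp4: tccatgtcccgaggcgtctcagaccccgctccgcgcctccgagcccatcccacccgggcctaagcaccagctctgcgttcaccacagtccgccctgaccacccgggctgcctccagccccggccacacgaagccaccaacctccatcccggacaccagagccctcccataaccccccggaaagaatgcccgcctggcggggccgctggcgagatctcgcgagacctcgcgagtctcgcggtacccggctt
Syt3: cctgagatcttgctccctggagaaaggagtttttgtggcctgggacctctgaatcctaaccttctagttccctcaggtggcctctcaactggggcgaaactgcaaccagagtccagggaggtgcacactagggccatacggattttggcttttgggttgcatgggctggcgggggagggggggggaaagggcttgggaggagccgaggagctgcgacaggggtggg
A match of letters is a description and not a bound site. The CRE starts 108 bases before the RefSeq start in *Stxbp3* and 159 bases before it in *Syn1*, a gene whose log2 ratio was −1.03 as given above, while *Stxbp3* had 0.90. Of the stretches of 31 bases in *Stxbp3* transcripts, 11.2% also occur in other genes, mainly its pseudogene copy *Stxbp3-ps*, so its counts are uncertain.

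The comparison of PTZ with saline cells asked which of the genes differed after seizures. Of the 54 genes 46 were measured, all but *Cplx3*, *Cplx4*, *Rims3*, *Rims4*, *Syt6*, *Syt8*, *Syt9* and *Vamp5*. Of these, 3 were over 2-fold higher in PTZ cells (6.52%), beside 13.3% of all 14459 genes, and 2 were over 2-fold lower (4.35%), beside 14.4%. The median log2 ratio of the machinery was −0.10 and that of all genes −0.04. By the stricter call, which here asked only that the ratio stay past 2-fold without any single cell, 1 gene was higher (*Syt14*) and 1 lower (*Syt15*), beside 6.71% and 7.18% of all genes.

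*Syt14* (chr1:192891233-193035775, minus strand), a synaptotagmin that does not bind calcium, stood at 50.6 CPM in PTZ cells (48.5 to 52.8) and 19 CPM in saline cells (17.7 to 20.4). Its log2 ratio was 1.41, between 1.27 and 2.10 leaving out single cells. It was detected in 19 of 30 PTZ cells (63.3%, interval 43.9% to 80.1%) and 15 of 38 saline cells (39.5%, 24% to 56.6%), and the cells of the groups overlapped from 0 to 99.6 TPM. *Syt15* (chr14:34219595-34230420, plus strand) rested on 1.68 expected counts in PTZ cells and 13.1 in saline cells, so its log2 ratio of −2.97 has a counting interval of −5.90 to −0.57. *Vamp3* stood at 32.4 CPM in PTZ and 13.6 CPM in saline cells, a log2 ratio of 1.25 that ran from 0.98 to 1.53 leaving out single cells. With the mean of the deposited TPM the log2 ratio of *Vamp3* was 0.55, and with cells thinned to 50000 counts it was 0.38, both within 2-fold. *Sv2b* and *Unc13c* had log2 ratios of 1.94 and −2.44, and each rested on 1 cell, which held 84.9% of the PTZ counts of *Sv2b* and 83.6% of the saline counts of *Unc13c*.

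The abundant genes of release stayed close. *Snap25* stood at 2348.4 CPM in PTZ and 2778.9 CPM in saline cells (log2 ratio −0.24), *Syp* at 1570.1 and 1835.1 CPM (−0.22), *Rab3a* at 764 and 733 CPM (0.06), *Vamp2* at 782 and 869 CPM (−0.15) and *Syt1* at 845 and 876 CPM (−0.05). *Cplx1* had a log2 ratio of 0.02, *Sv2a* 0.17 and *Unc13a* −0.02. Within 2-fold, *Syt4* stood at 134 CPM in PTZ and 219 CPM in saline cells (−0.71), *Syt17* at 80.2 and 131 CPM (−0.71), *Syn2* at 221 and 356 CPM (−0.69) and *Cplx2* at 752 and 977 CPM (−0.38). *Syt4* was detected in 19 of 30 PTZ cells and 33 of 38 saline cells. Its ratio in whole cells and in nuclei therefore had opposite signs, and the difference between these ratios was not tested. Several abundant genes were missing from more PTZ than saline cells, with *Cplx1* in 20 of 30 beside 35 of 38 and *Stxbp6* in 22 of 30 beside 36 of 38. This was not counted over all genes. The granule cell marker *C1ql2* was likewise detected in 24 of 30 beside 37 of 38, but *Rbfox3* in 27 of 30 beside 33 of 38. The number of genes above 1 TPM had an SD of 2201.5 over PTZ cells and 1012.8 over saline cells.

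**Figure D5:**
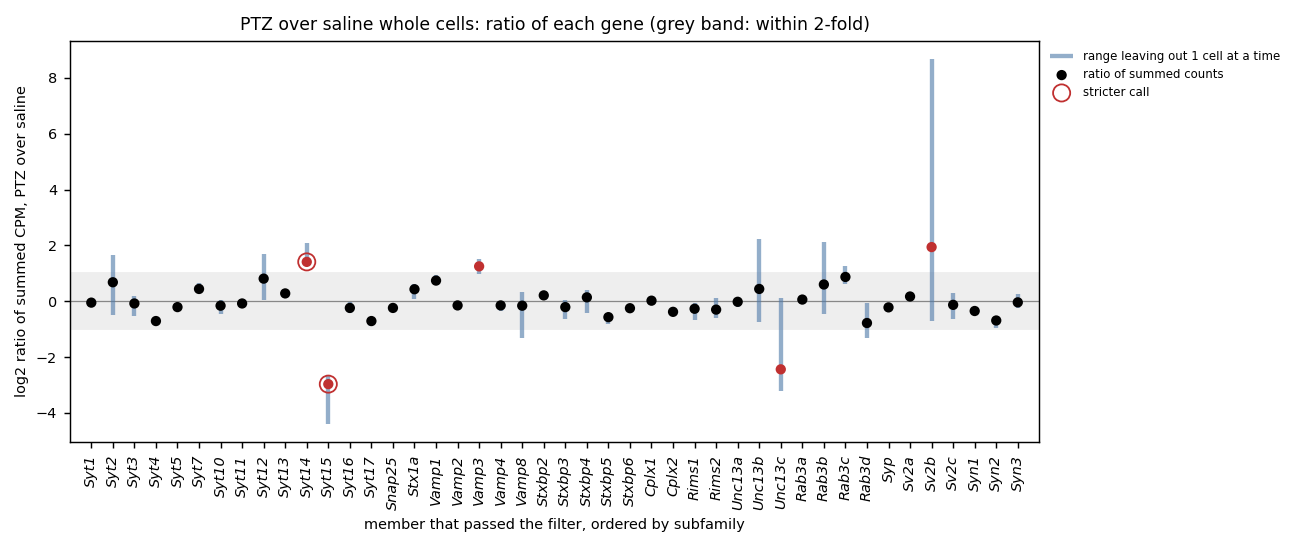
For each of 44 genes measured in whole cells (horizontal axis), the vertical axis gives the log2 ratio of summed CPM in PTZ over saline cells (red dots past 2-fold, black within) and the bar the range when cells are left out singly. Most genes lie within the grey 2-fold band, *Syt14* and *Syt15* are ringed as the stricter calls, and the bars of *Sv2b* and *Unc13c* cross 0.

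Whole cells of both treatments held RNA of immediate early genes. The summed level of 8 of them (*Fos*, *Arc*, *Egr1*, *Homer1*, *Nr4a1*, *Npas4*, *Fosb* and *Junb*) had a median of 1612.0 TPM in saline cells (0.38 to 31404.1) and 227 TPM in PTZ cells (5.76 to 30825.9). The 4 markers of immature neurons had a median of 19 TPM in saline cells (0 to 2097.1) and 24 TPM in PTZ cells (0 to 2336.2). Among them *Calb2* was detected in 1 of 38 saline and 7 of 30 PTZ cells. The 6 astrocyte markers ran from 0 to 200.3 TPM in saline and from 0 to 4540.2 TPM in PTZ cells, with *Aqp4* at 0 in both. The 4 CA pyramidal markers ran from 0 to 277.2 TPM in saline (median 0) and from 0 to 485.2 TPM in PTZ cells (median 6.91), and 11 saline and 19 PTZ cells were over 1 TPM. Of these, *Fibcd1* was detected in 5 saline and 12 PTZ cells (log2 ratio 1.68, a stricter call) and *Wfs1* in 7 and 11 (1.36), with *Mpped1* at 0 in both. The share of these in the ratios of PTZ over saline was not tested.

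Further genes of vesicle release and recycling were listed by function. Of 69 listed genes 60 were measured in NE nuclei, where 7 were over 2-fold higher and 15 lower in FOS+ nuclei, beside 18.2% and 28.3% of all genes. By the stricter call 1 was higher and 2 were lower, beside 2.97% and 4.19%. *Picalm*, a clathrin adaptor that retrieves VAMP2 in endocytosis, stood at 159 CPM in FOS+ and 34.8 CPM in FOS− nuclei (log2 ratio 2.19). *Dnm1*, the neuronal dynamin that cuts endocytic vesicles from the membrane, stood at 66.3 and 223 CPM (−1.75), and *Snap47*, a relative of SNAP-25, at 66.8 and 214 CPM (−1.68). In whole cells 66 of the 69 were measured, of which 6 were higher and 4 lower in PTZ cells, beside 13.3% and 14.4% of all genes, and 3 and 3 by the stricter call, beside 6.71% and 7.18%. *Scamp5*, a membrane protein of secretory vesicles, stood at 248 CPM in PTZ and 78.2 CPM in saline cells (1.66) and was detected in 26 of 30 and 33 of 38 cells. *Snap23*, the widely expressed relative of SNAP-25, had a log2 ratio of 2.83 and *Doc2a*, a calcium sensor of spontaneous and asynchronous release, 5.11, the latter being detected in 7 of 30 PTZ cells and 1 of 38 saline cells. Lower in PTZ cells were *Rab27a*, a GTPase of secretory granules (−1.46), and the RAB27 effectors *Sytl2* (−2.67) and *Sytl5* (−5.95), which were detected in 11, 2 and 1 of 30 PTZ cells beside 13, 5 and 7 of 38 saline cells.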

How the data were processed

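RNA of single whole cells and single nuclei was sequenced after Smart-seq2 or C1 amplification. The authors trimmed the reads, aligned them to the mouse genome (mm10, Ensembl annotation) with RSEM and Bowtie 1.0.0, and deposited expected counts (estimated counts per gene) and TPM for each cell in 3 separate tables, and 0 other columns of single samples were left unused. The sources used here state no strand setting for the counting. The authors tested groups with edgeR, taking nuclei as replicates, which was not followed here because the labels name no animals. Before testing FOS+ against FOS− nuclei, the paper left out FOS+ nuclei whose expression grouped with that of FOS− nuclei. For all samples it also asked that spike-in values correlate with their expected levels. These steps were not made here, so the groups of cells and nuclei are not those of the paper. Groups were taken from the labels.

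Cells were kept with a total count above 50000 and a number of genes above 1 TPM over the mean of their table minus 2 SD, which left 38 saline cells (47 deposited), 30 PTZ cells (35), 41 FOS− nuclei (48) and 40 FOS+ nuclei (48). None of the 23 nuclei from the home cage was removed, although 1 fell below these limits. Expected counts were rounded for the filter (a count above 0 in at least 5 cells of the 2 groups), summed per group and scaled by the summed totals to CPM. Differences are log2 ratios of these CPM values, and a count of 0 was replaced by a floor of 3 counts over the group. A gene was detected in a cell when its TPM was above 1. For equal depth, each cell was thinned to 50000 counts. Ratios were tested on simulated data with known changes. Alternatives were TMM factors (edgeR 4.0.16 in R 4.3.3), the median of ratios, the mean of CPM or TPM over cells, no filter, all deposited cells, thinned counts, single amplification conditions, leaving out single cells and other limits of detection. Python 3.11.15, numpy 2.4.6, pandas 2.3.3, scipy 1.17.1 and matplotlib 3.10.9 were used. Promoter windows came from RefSeq (GRCm38.p6) and gene positions from GENCODE (GRCm38).

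The members and all gene lists were chosen with earlier results of these data known. Full values were given for the member with the highest mean TPM in each subfamily and its runner-up, for members of the stricter call, and for up to 3 further members per comparison with the largest ratio at a mean of at least 10 CPM. Other members were named after their values were seen. Of the 54 members, 2 enter the counts and sums but are not reported here by name or drawn.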

Additional observations from a re-analysis of the deposited data

How the results depend on the processing

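The number of genes over 2-fold lower in FOS+ nuclei was 4 with TMM factors and 4 with the median of ratios, in place of 9, since both scalings moved all genes upwards. With these scalings 23.6% and 24.5% of all genes were lower. Within single amplification conditions, which hold fewer nuclei, it was 14 with 10 µM TSO and the 1:200 dilution and 14 with 1 µM TSO and the 1:2000 dilution, where 27.3% and 39.8% of all genes were lower. The number over 2-fold higher, 7, was 16 with 1 µM TSO and the 1:200 dilution and 13 with 1 µM TSO and the 1:2000 dilution, where 32.9% and 24.7% of all genes were higher. For PTZ over saline, 7 genes in place of 3 were higher without the filter on low counts, where 19.3% of all genes were higher. After thinning 1 in place of 2 was lower, where 11.5% of all genes were lower. Leaving out single cells gave 6 to 8 genes higher and 7 to 12 lower in FOS+ nuclei, and 2 to 4 higher and 1 to 3 lower in PTZ cells. These ranges were not counted over all genes. Sign changes in the log2 ratio of FOS+ over FOS− are given first for genes with full values that were past 2-fold. With 10 µM TSO and the 1:200 dilution the sign changed for *Syn1* (0.38), *Unc13a* (−0.07), *Syn3* (−1.07), *Syt4* (−0.22) and *Syt16* (2.08). With 10 µM TSO and the 1:2000 dilution it did so for *Unc13a* (−0.03) and *Syt16* (0.05), with 1 µM TSO and the 1:200 dilution for *Syn1* (2.50), and with 1 µM TSO and the 1:2000 dilution for *Sv2c* (−0.26). Other genes also changed sign, among them *Syt10* (5.81 with 1 µM TSO and the 1:200 dilution) and *Syt17* (3.22 with 1 µM TSO and the 1:2000 dilution). So did genes within 2-fold, such as *Snap25* (−0.17 with 1 µM TSO and the 1:200 dilution). Another was *Vamp2* (−1.59 with 1 µM TSO and the 1:2000 dilution). The cause of these changes was not tested. Thinned counts gave no PTZ ratio for *Syt15* and *Unc13b*, and the filter alternative was not applied to single ratios. No paired analysis was possible because replicate numbers were given in accession order, mark no shared animal and enter no test. With 1 sample a group, intervals reflect counting error only, and genes near 1 TPM are limited by depth.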
